A study of Mus musculus with 25 samples.

Results

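The peak lists of 3 GFP-tagged forms of the splicing factor SRSF7 had 13563 nucleotides in common. A nucleotide was taken as shared when the same chromosome, position and strand stood in the deposited peak lists of the WT, mutZn and D27aa proteins. The 3 lists together held 3811937 nucleotides, so the shared ones made up 0.356% of them. They were 39.0% of the 34759 nucleotides of the D27aa list, 0.663% of the 2045481 of the WT list and 0.604% of the 2246120 of the mutZn list. The nucleotides were chosen by the peak calls made on the anti-GFP libraries with UV light, so the levels of the 7 such libraries used here are given as a description without a test.

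SRSF7 belongs to the serine/arginine-rich (SR) proteins, which bind pre-mRNA and help to select splice sites. It carries an RNA recognition motif, a zinc knuckle that also takes part in RNA binding, and a tail rich in arginine and serine through which SR proteins contact each other. In iCLIP, RNA is joined to the protein by UV light and recovered with it on an antibody. Most cDNAs end next to the joined nucleotide, so that each marks 1 crosslink event. A peak nucleotide is a position called by setting the events in its neighbourhood against a random spread of events.

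All libraries came from P19 cells, a mouse embryonal carcinoma line. The anti-GFP groups were SRSF7-GFP overexpressing cells (WT, 3 libraries), cells with SRSF7mutZn-GFP (mutZn, 2) and cells with SRSF7D27aa-GFP (D27aa, 2), each with 1 library made without UV light. The labels do not spell out the changes in the variants, nor how the tagged proteins were expressed. An anti-SRSF7 antibody gave, from SRSF7-GFP overexpressing cells, the products titled GFP_OE (2 libraries), endo_OE (2) and RRM_OE (2), and from cells of WT genotype the product titled endo_WT (1). These 7 libraries took no part in choosing the shared nucleotides. Their controls were 1 library without UV light (GFP_OE_noUV) and 1 with UV light but without antibody (GFP_OE_noAb). Both controls came from overexpressing cells. In piCLIP, SRSF7-GFP was precipitated from monosomal and polysomal fractions of overexpressing cells (mono_IP and poly_IP, 2 libraries each). Each fraction also had 1 library titled IgG, although the labels list the anti-EGFP antibody for these too. The labels give UV light for the immunoprecipitates and the IgG libraries alike. Where the labels do not name separate cultures, the spread between libraries of a group may be technical.

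Total events ranged from 221746 to 3952779 for WT, from 6436730 to 11782376 for mutZn and from 376870 to 388768 for D27aa. The anti-SRSF7 UV libraries held 17763 to 471705 events, the piCLIP immunoprecipitates 18357 to 52553 and the controls 1153 to 89070. The WT list does not match the 3 WT libraries used here. Its header names 4 summed libraries, its score exceeded the sum of the 3 libraries at 81.6% of its nucleotides, and 68.0% of them had no event in any of the 3. Among the shared nucleotides 2830 (20.9%) had no event in a WT library, which left 10733 with one. The mutZn and D27aa scores equalled the sums of their libraries at 100% of the nucleotides.

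Shared nucleotides had higher scores than the whole list in WT and mutZn, and mostly low scores in the far smaller D27aa list. The score of a peak nucleotide is the number of cDNAs in the summed libraries. It is not scaled for depth, and the scores of the whole lists sum to 4232166 (WT), 4244001 (mutZn) and 85119 (D27aa). Scores are therefore compared within a list only, and as the lists chose the nucleotides they are a description. Its median over the shared nucleotides was 8 in the WT list, 6 in the mutZn list and 1 in the D27aa list, against 1 over the whole of each list. A score of 10 or more was held by 46.7% of the shared nucleotides in the WT list and by 1.91% of that list as a whole. In the mutZn list the shares were 38.9% and 1.27%, and in the D27aa list 6.92% and 3.26%. The highest scores of shared nucleotides were 569 in WT, 454 in mutZn and 295 in D27aa.

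Many of them held a single cDNA at the nucleotide itself. Peaks were called with neighbours up to 15 nt, so such a call need not rest on that cDNA alone. In the D27aa list 7165 shared nucleotides (52.8%) had a score of 1, and 596 had a score of 1 in all 3 lists. At the other end, 747 had a score of at least 10 in each list. In the libraries, 4567 shared nucleotides (33.7%) had an event in both D27aa libraries and 8996 in 1 of them, while 9584 (70.7%) had an event in both mutZn libraries. An event in each of the 7 anti-GFP UV libraries was found at 1683 (12.4%).

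A further 479020 nucleotides stood in the WT and mutZn lists but not in the D27aa list. Just outside the rule, 5472 D27aa nucleotides were also in the WT list only and 2805 in the mutZn list only, and 12919 were in neither. The mean D27aa score was 3.74 for shared nucleotides, 2.05 and 1.56 for those missing from 1 of the other lists, and 1.46 for those in the D27aa list alone.

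Shared nucleotides lay on all chromosomes, and their shares of chromosomes 17, 19 and the mitochondrial genome exceeded those of the WT list. Chromosome 17 held 2217 of them (16.3%), 3.14 times its share of the WT list (5.21%). Chromosome 19 held 763 (5.63%, against 2.61% of the WT list) and the mitochondrial genome 254 (1.87% against 0.147%). Chromosome 13 held 943 (6.95% against 4.24%), and chromosome 11 held 1320 (9.73%), close to its share of the WT list (10.6%). Set against the D27aa list, chromosome 17 (10.1% of that list) and the mitochondrial genome (1.02%) still stood higher, whereas chromosome 19 (5.20%) was close. Of the D27aa nucleotides, 63.3% on chromosome 17, 71.5% on the mitochondrial genome and 42.2% on chromosome 19 were shared, against 39.0% overall. The lowest ratios to the WT list among the autosomes were 0.447 on chromosome 8 and 0.473 on chromosome 14, and chromosome Y held 3 shared nucleotides. By strand, 7336 (54.1%) lay on the minus and 6227 on the plus strand.

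**Figure D1:**
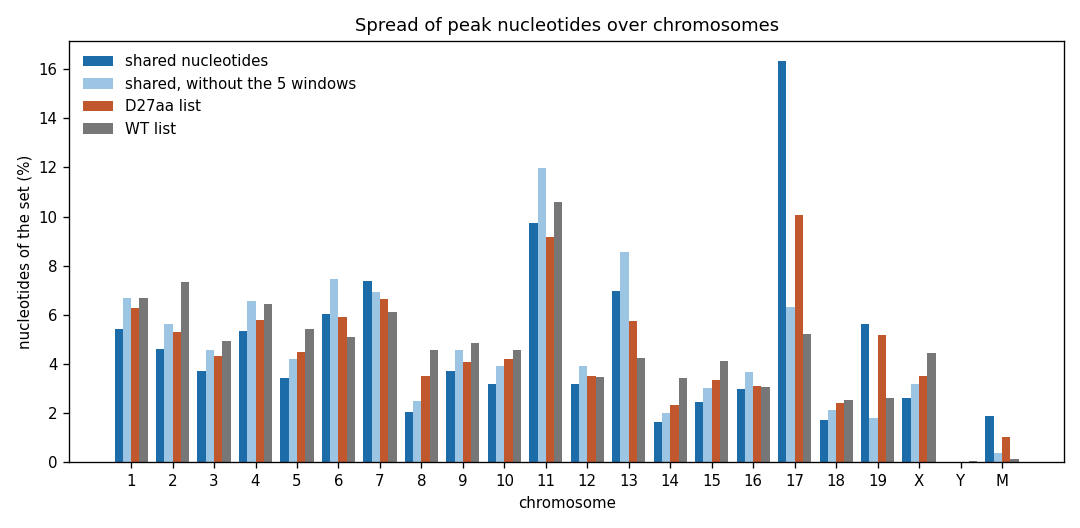
Percent of the shared nucleotides (blue), of the shared nucleotides outside the 5 windows of 5000 nt that hold most of them (light blue), of the D27aa list (orange) and of the WT list (grey) on each chromosome; M is the mitochondrial genome. Chromosome 17 stands out at 16.3% and falls to 6.32% without the 5 windows.

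A few short stretches held many of them. When each strand was divided into windows of 5000 nt, 2282 windows held a shared nucleotide, and 5 of them held 2528 (18.6%). Without these 5 windows, chromosome 17 held 6.32% of the remaining 11035 shared nucleotides, chromosome 19 held 1.82% and the mitochondrial genome 0.39%, whereas chromosome 13 rose to 8.55% and chromosome 11 to 12.0%. On build mm9, the 5 windows are the plus strand of chromosome 17 from 39980001 to 39985000 (836 shared nucleotides), the minus strand of chromosome 17 from 80600001 to 80605000 (684), the minus strand of chromosome 19 from 5795001 to 5800000 (562), the minus strand of chromosome 7 from 67115001 to 67120000 (235) and the plus strand of the mitochondrial genome from 1 to 5000 (211). No annotation of mm9 was used here, so these positions carry no gene name, and no sequence is shown.

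Both chromosome 17 windows also held events in the libraries that did not choose them. Levels are events at shared nucleotides per 1000000 events of the library (EPM). On the minus strand of chromosome 17 they were 20411 and 8999 in GFP_OE, 14053 and 14467 in endo_OE, and 18128 and 12703 in RRM_OE. The single endo_WT library, from cells of WT genotype, held 955 there, below each of the 6 libraries of overexpressing cells. The no-UV library of GFP_OE held 21241 (38 events), no lower than the libraries with UV. In the anti-GFP libraries this window held 10746, 5934 and 4400.4 in WT, 1787 and 1514 in mutZn, and 8130.1 and 7634 in D27aa.

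On the plus strand of chromosome 17 the levels were 6946 and 15054 in GFP_OE, 18499 and 21784 in endo_OE, 14694 and 18659 in RRM_OE and 6298 in endo_WT. The library without antibody held 53247 there (164 events), more than any other library. On the minus strand of chromosome 19, endo_WT held the highest level, 7002, against 2139 to 4579 in the 6 other anti-SRSF7 UV libraries. The mitochondrial window held 225 to 2178 in those 6 libraries, 260.1 in endo_WT and at most 152 in the piCLIP immunoprecipitates, and among the anti-GFP libraries its highest level was 5973 in WT without UV. The 5 windows thus differed from each other in which libraries held most events.

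Shared nucleotides occurred in clusters. Of the 13563, 7533 (55.5%) had another shared nucleotide directly beside them on the same strand, 12304 (90.7%) had one within 15 nt and 12419 (91.6%) within 30 nt. These shares lay below those of the whole lists, which were 98.4% and 98.5% for WT, 98.2% and 98.4% for mutZn and 94.5% and 94.6% for D27aa. The nucleotides of the WT and mutZn lists only reached 94.4% and 95.6%, and those of the D27aa list only 77.8% and 78.6%. Peaks were called within a neighbourhood of 15 nt, so that some clustering is built into each list. Of the distances between successive shared nucleotides on a chromosome strand, 39.8% were 1 nt, 10.6% were 2 nt and 7.07% were 3 nt.

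**Figure D2:**
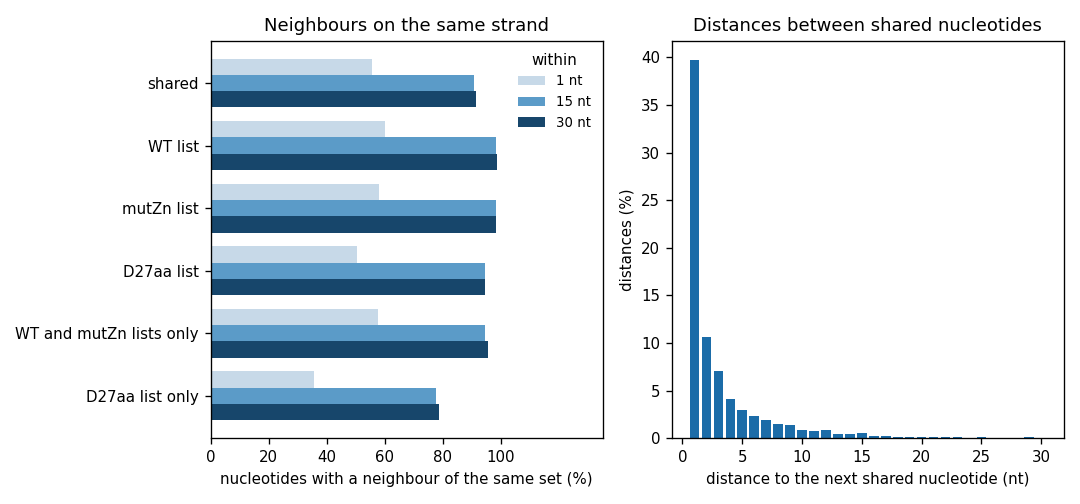
Left, percent of the nucleotides of each set with another nucleotide of the same set within 1, 15 or 30 nt on the same strand; right, percent of all distances between successive shared nucleotides, shown up to 30 nt. Shared nucleotides reach 90.7% within 15 nt, and 39.8% of their distances are 1 nt.

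Merging shared nucleotides up to 15 nt apart gave 3339 clusters, and merging up to 30 nt apart gave 3127, which are used from here on. Of these, 1144 were single nucleotides and 654 were pairs. Clusters of 5 or more numbered 730 and held 67.0% of the shared nucleotides, and the 242 clusters of 10 or more held 44.2%. The largest had 513 shared nucleotides in 592 nt, and the 100 largest together held 30.7%. The median width of clusters with more than 1 nucleotide was 12 nt. Chromosome 11 had the most clusters (303), followed by 7 (254) and 1 (224), while chromosome 17 had 188.

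The level at the shared nucleotides varied widely between the anti-GFP groups. In WT replicates 2, 3 and 4 it was 46720.1, 26668 and 19451 EPM. It was 14263 and 14165 in mutZn and 65579.6 and 66772 in D27aa. D27aa lay above every WT library and mutZn below every one. This order was not tested, since the nucleotides come from these libraries. The level fell from the shallowest to the deepest of the 3 WT libraries, and the mutZn libraries are the deepest of all. Both D27aa libraries were deeper than WT 2 and higher. Of the D27aa list 39.0% was shared, against 0.663% of the WT and 0.604% of the mutZn list, so the choice draws on the lists unequally. The part of depth was not tested.

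In the anti-SRSF7 UV libraries the levels were 64285 and 59524 in GFP_OE, 83453 and 85534 in endo_OE, 54158 and 63445 in RRM_OE and 46128 in endo_WT. Both endo_OE libraries lay above all 5 others, GFP_OE and RRM_OE overlapped, and endo_WT was lowest. These levels were not tested between groups. Without the 5 windows, endo_OE held 44188 and 42815, GFP_OE 32599.9 and 30226, RRM_OE 18522 and 28198 and endo_WT 31192, so that endo_OE stayed highest and RRM_OE became lowest. With each position counted once, endo_OE held 44225 and 32834 and RRM_OE 32812 and 35253, and these overlapped. In piCLIP, mono_IP held 86237 and 73965 and poly_IP 37805 and 40039, without overlap.

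Several controls held as much as the libraries they belong to, or more. Without UV, the level was 40586 for WT, 19793 for mutZn and 20116 for D27aa, and 51425 for the anti-SRSF7 product GFP_OE. The mutZn library without UV thus lay above both mutZn libraries with UV and the WT one between WT 2 and WT 3, whereas those of D27aa and GFP_OE lay below both of theirs. The library without antibody held 87338, above all anti-SRSF7 libraries, but 22727 without the 5 windows, below both GFP_OE and both endo_OE libraries and endo_WT. The IgG libraries held 58109 (monosomal, 67 events at shared nucleotides) and 137336 (polysomal, 1535 events), the latter the highest of the 25 libraries, the former below both mono_IP libraries. When each position of a library was counted once, whatever its events, several of these orders turned. A library cannot then exceed the 13563 shared nucleotides divided by its positions, a limit that falls with depth. The mutZn 3 library, with 9926681 positions, had an event at 12265 shared nucleotides, and mutZn without UV had 65076 positions. Under this count a shallow control can lie above a deep library by construction, so these orders are not read further. Monosomal IgG then held 80058 and was the highest, above mono_IP (42561 and 40827), and polysomal IgG held 52224. GFP_OE without UV held 48471, above GFP_OE (23623 and 12969), and mutZn without UV held 15735, above mutZn (1236 and 1919). WT without UV held 22470.5, above the 3 WT libraries, while D27aa without UV, at 16264, stayed below D27aa. These are shares of small totals. For the 2 shallowest controls the exact 95% binomial interval ran from 4.53% to 7.32% of the events (monosomal IgG) and from 4.17% to 6.27% (GFP_OE without UV), which covers counting error only.

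**Figure D3:**
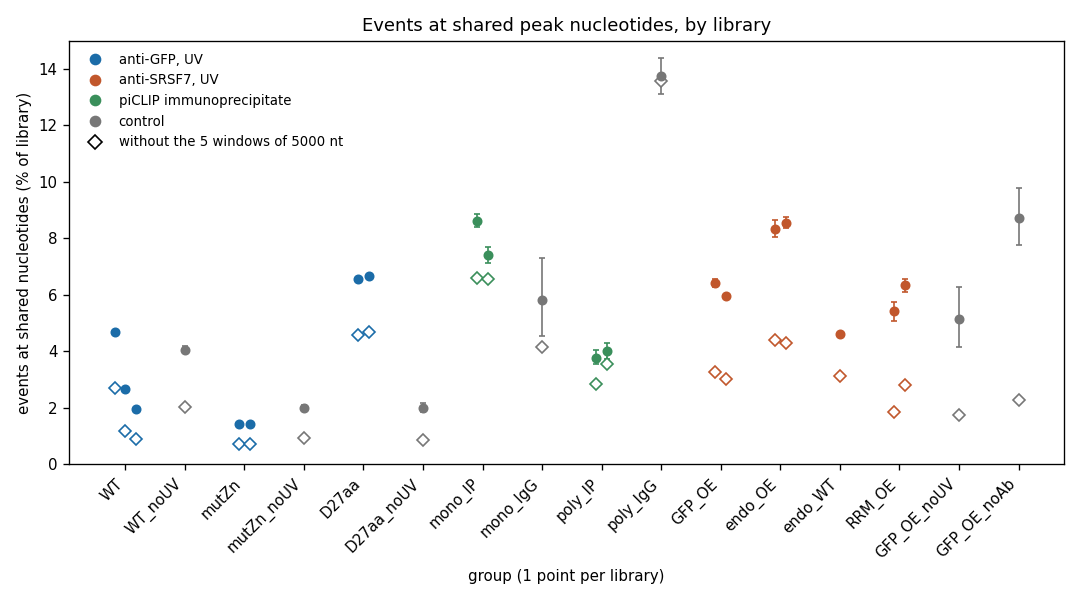
Percent of the events of each library that fall on shared nucleotides, 1 filled point per library with its exact 95% binomial interval, and open diamonds for the same value without the 5 windows of 5000 nt. The polysomal IgG library is highest at 13.7%, and the mutZn libraries are lowest at 1.43% and 1.42%.

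The highest level lay at the shared nucleotide itself in 22 of the 25 libraries. The 7 anti-GFP UV libraries are among these, and as they chose the nucleotides their maximum there was favoured by the choice. Neighbouring positions also include other shared nucleotides, since 55.5% of them have one directly beside them. The exceptions were D27aa without UV, monosomal IgG and GFP_OE without UV, where it lay 3, 1 and 1 nt away. In D27aa the level at the shared nucleotide was 1.41 times that 1 nt away in both libraries, and 3.38 and 3.43 times the mean level 16 to 30 nt away. In the anti-SRSF7 UV libraries the ratio to 1 nt away was 1.11 to 1.25 and that to 16 to 30 nt away 2.03 to 2.83, the highest values in endo_WT. In piCLIP the second ratio was 3.15 to 3.41 in the 4 immunoprecipitates and monosomal IgG, and 8.63 in polysomal IgG. The controls without UV gave 2.43 (WT), 1.76 (mutZn), 1.59 (D27aa) and 1.55 (GFP_OE).

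**Figure D4:**
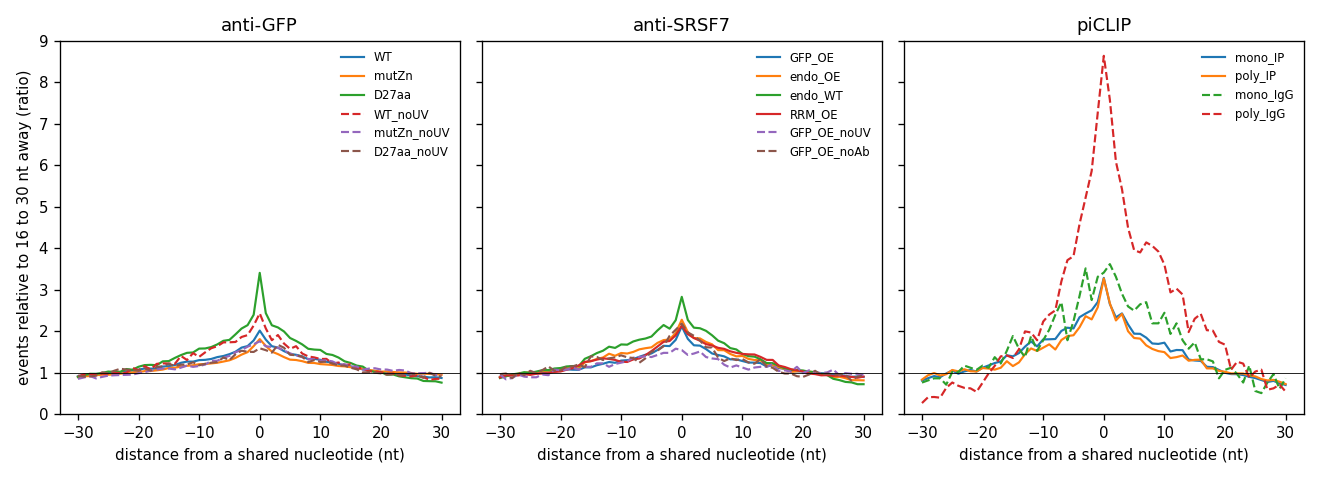
Mean events per 1000000 (EPM) at each distance from a shared nucleotide, as a ratio to the mean level 16 to 30 nt away, for anti-GFP, anti-SRSF7 and piCLIP groups (solid) and their controls (dashed). Most groups have their maximum at 0, with 8.63 in polysomal IgG.

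Libraries that took no part in the choice also held more events at a shared nucleotide than at a nucleotide of the WT and mutZn lists only. The ratio of events per nucleotide was 38.5 and 32.4 in GFP_OE, 45.3 and 45.3 in endo_OE, 38.2 and 40.7 in RRM_OE and 25.2 in endo_WT. On the log2 scale the mean was 5.22 ± 0.30 (SD, n = 7), above 0 in 7 of 7 libraries. A two-sided exact sign-flip permutation test gave p = 0.015625, the smallest that 7 libraries allow. The test takes the libraries as independent. All were made with the same antibody, and GFP_OE, endo_OE and RRM_OE all came from overexpressing cells. The p-values of this test are therefore given as a description. The compared nucleotides were chosen by their absence from the D27aa list. How far this choice alone favours shared nucleotides in any library was not tested. Shared nucleotides also had higher WT and mutZn scores. Compared with nucleotides of like scores in both lists, the ratio was 2.75 to 5.63 over the 7 libraries and the mean log2 ratio 2.12 ± 0.33 (exact p = 0.015625). Without this matching, the controls showed the same difference. Their ratios were 32.5 (GFP_OE without UV), 56.6 (without antibody), 47.3 and 134 (monosomal and polysomal IgG) and 11.1 to 23.2 (anti-GFP without UV). The difference was thus not limited to libraries made with UV light and antibody. The controls were not compared at like scores.

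At the depth of the anti-SRSF7 UV libraries, 7313 shared nucleotides (53.9%) had an event in at least 1 of the 7, and 124 had one in all 7. In at least 1 of the 4 piCLIP immunoprecipitates 2324 (17.1%) had an event, and in at least 1 of the 3 anti-GFP libraries without UV 2816 (20.8%). By cluster, 1990 of the 3127 (63.6%) had an event in an anti-SRSF7 UV library and 4.09% in all 7. The latter had a median of 16.5 shared nucleotides, and the 1137 without any event had a median of 1.

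Other peak lists held many of the same positions. The piCLIP list held 1886 shared nucleotides, 13.9% of these and 9.23% of that list, against 0.596% of the nucleotides of the WT and mutZn lists only. The lists made without UV held 1396 (WT, 38.1% of that list), 597 (mutZn, 24.1%) and 282 (D27aa, 33.3%). Together they held 1846 shared nucleotides (13.6%), against 0.328% of the nucleotides of the WT and mutZn lists only and 0.65% of those of the D27aa list only. The polysomal IgG list held 24 shared nucleotides among its 192, and the monosomal IgG list none among its 5.

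Single clusters are described by the EPM of all events within their span. Cluster 1, on the minus strand of chromosome 17 from 80603844 to 80604435, ranked first by size, by anti-GFP level and by anti-SRSF7 level. It held 8681, 4807 and 3593 in WT, 1465 and 1279.7 in mutZn, and 6718 and 6348 in D27aa. In the anti-SRSF7 UV libraries it held 17659.9 and 7379.6 in GFP_OE, 11278 and 11705 in endo_OE, 16269.8 and 10842 in RRM_OE, and 719 in endo_WT. It was the strongest cluster in 18 of the 25 libraries. Endo_WT was the only anti-SRSF7 library, controls included, with a level below 5000.

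Cluster 2, on the plus strand of chromosome 17 from 39984599 to 39985046 (259 shared nucleotides), ranked second on all 3 counts. Its levels were 1984, 2634 and 1856 in WT, 1409.7 and 1662 in mutZn, 2433 and 2637 in D27aa, 2893 and 7445 in GFP_OE, 7071 and 9349.7 in endo_OE, 3378 and 7003 in RRM_OE and 2648 in endo_WT. The library without antibody held 23377 in it. Its neighbour from 39984371 to 39984557 (cluster 5) held 20454 without antibody and at most 7807 elsewhere. In these clusters the control without antibody exceeded every library with UV and antibody.

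Cluster 3, on the minus strand of chromosome 9 from 78023142 to 78023211, had 69 shared nucleotides in 70 nt. It held 2020.3, 992 and 661 in WT, 663 in both mutZn libraries, and 2001 and 1893 in D27aa. In the anti-SRSF7 libraries it held 1593 and 3769 in GFP_OE, 3193 and 4639 in endo_OE, 394 and 2164 in RRM_OE and 2411 in endo_WT. The GFP_OE libraries lay on either side of the lower endo_OE library, so these groups overlapped.

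Cluster 4, on the minus strand of chromosome 6 from 128749484 to 128749520, had 32 shared nucleotides and was strong in D27aa but weak with the anti-SRSF7 antibody. It held 3128 and 2837 in D27aa, 1696, 294 and 155 in WT, and 105 and 100.2 in mutZn. Polysomal IgG held 10021, the most of any library, and mono_IP 5138 and 1249, while the 7 anti-SRSF7 UV libraries held 0 to 299.6. The 0 was in RRM_OE 3, where no event allows up to 169 (3 events). Cluster 12, on the plus strand of chromosome 11 from 68886925 to 68886948, was instead strong in endo_OE and endo_WT, with 6087 and 5309 in endo_OE and 4350.0 in endo_WT. It held 1104 and 1319 in GFP_OE and 563 and 2257 in RRM_OE, so the 3 endo libraries lay above the 4 others without overlap. The library without antibody held 325 (1 event), and GFP_OE without UV held none, which at its depth allows up to 1677.

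Clusters 6 to 10 ranked 6 to 10 by anti-GFP level, and cluster 11 ranked 4 by size. The minus-strand cluster of chromosome 19 from 5797176 to 5797272 (cluster 6, 83 shared nucleotides) held 225 to 950.4 over the 7 anti-SRSF7 UV libraries and 356 to 866 over the 7 anti-GFP ones. The minus-strand cluster of chromosome 13 from 22113021 to 22113060 (cluster 7, 39 shared in 40 nt) held 1223 and 1075 in D27aa, 997, 146 and 122 in WT and 85.0 and 76.3 in mutZn. The minus-strand cluster of chromosome 11 from 108873135 to 108873355 (cluster 8) held 1008 and 1073 in D27aa, 550.2 or less in WT and 125 or less in mutZn. Clusters 9 and 11 lay on the plus strand of chromosome 17, from 39980016 to 39980500 and from 39980733 to 39981111, with ratios of the mutZn mean to the WT mean of 1.297 and 1.33. The libraries of mutZn and WT overlapped in both, and without WT 2 the ratios were 1.02 and 1.09. Cluster 10 lay on the minus strand of the same chromosome from 80603513 to 80603568, next to cluster 1, and these had ratios of 0.245 and 0.241 (0.346 and 0.327 without WT 2). In cluster 10, as in cluster 1, endo_WT was the lowest anti-SRSF7 library, at 127.7 against 974 to 1913 in the others, controls included.

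Of the 3127 clusters, 186 had at least 100 events in both WT and mutZn, and their ratio of the mutZn mean to the WT mean had a median of 0.61 (quartiles 0.394 and 0.803). Without WT 2 the median was 0.651. Both mutZn libraries lay below every WT library at 97 of the 186 clusters (52.2%) and above every one at 10 (5.38%), while at the others the libraries overlapped. These libraries chose the nucleotides, and mutZn lay below every WT library over all shared nucleotides together. No share over other regions was computed, so nothing further is read from these counts. The lowest ratio, 0.0289, belonged to the minus strand of chromosome 3 from 78358010 to 78358046 (cluster 17). It held 5.69 and 8.23 in mutZn, 348 and 455 in D27aa, and 618, 64.6 and 39.0 in WT. Cluster 18 (chromosome 6, minus strand, 97599555 to 97599593) held 11.8 and 11.2 in mutZn and 595, 122 and 60.5 in WT. WT 2 held most of the WT level at both, as it did at cluster 19 (chromosome 5, plus strand, 60509538 to 60509554), with 509.6 against 34.6 and 15.9. Without WT 2 the ratios of clusters 17, 18 and 19 were 0.134, 0.126 and 0.381. The 3 highest ratios, 3.24 (chromosome 12, plus strand, 110787508 to 110787572), 2.47 (chromosome X, plus strand, 61750564 to 61750631) and 1.80 (chromosome 12, minus strand, 120563654 to 120563725), belonged to clusters of low level, with means of 26.1 to 48.7 in mutZn. WT 2 had no event in the first and second, where a count of 0 allows up to 13.5, and without it the 3 ratios were 2.16, 1.65 and 1.51. RNA amount and binding cannot be told apart here.

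**Figure D5:**
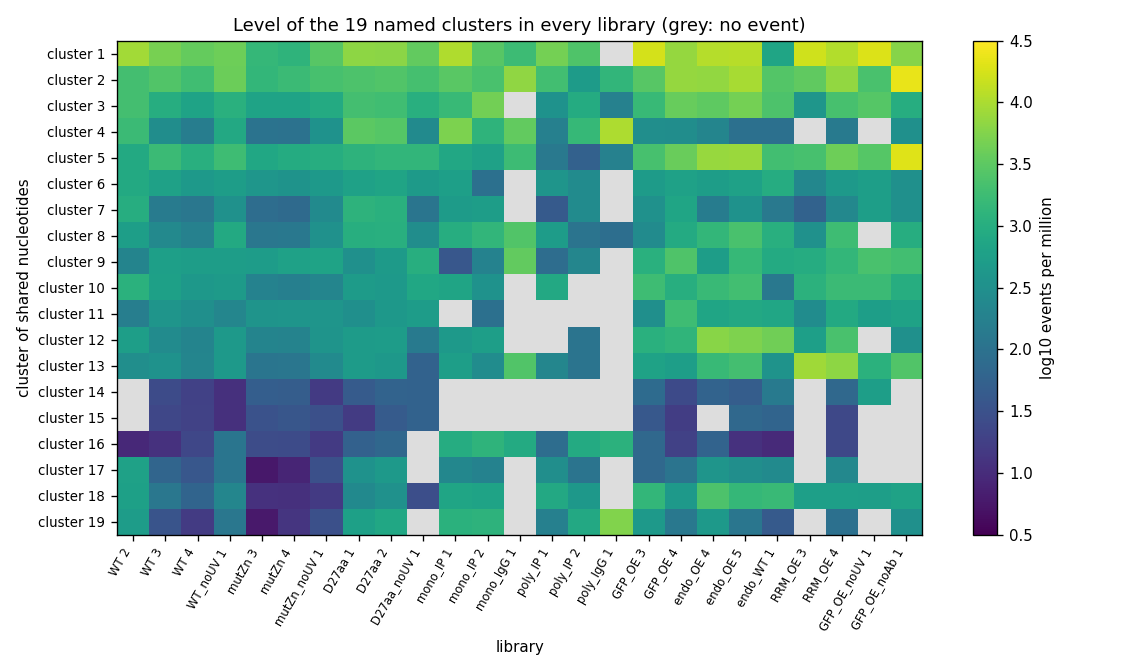
Events per 1000000 (EPM; log10 colour scale, grey where a library has no event) of the 19 clusters named by rank in every library. Cluster 1 is the strongest in most libraries and low in endo_WT (719), and cluster 13 is high in RRM_OE (8557 and 6514).

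Comparisons between the anti-SRSF7 products were tested over the whole genome in bins of 100 nt per strand, with limma-voom and Benjamini-Hochberg adjustment over all bins tested. Shared nucleotides lay in 3352 bins, of which 931 reached the minimum of 15 events and were tested among 2030. For RRM_OE against GFP_OE, 1 of the 931 passed an adjusted p of 0.05, while 0.0985% of all bins tested did (2 bins, both higher in RRM_OE). Libraries with the same library identifier (lib_id) in their headers are called a run here. With the run as a block 12 of the 931 and 28 of the 2030 passed, and with the replicate block 67 and 152. Before adjustment 53 of the 931 and 147 of the 2030 had p below 0.05. The median log2 fold change was 0.24 over the 931 and 0.42 over all, and with quantile normalization -0.19 and -0.01. A filter of at least 3 events expected in the shallowest library, chosen after seeing the data, kept 116 bins, 92 with shared nucleotides. The median was then -0.33 over the 92 and -0.32 over the 116. Its sign thus changed with the filter and the scaling, so it is not read further.

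The called bin, on the plus strand of chromosome 17 from 39983801 to 39983900, held 28 shared nucleotides, those of cluster 13. It held 8557 and 6538 EPM in RRM_OE, against 639 and 579 in GFP_OE, a log2 fold change of 3.61 ± 0.66 (SE, limma-voom adjusted p = 0.00297). In the cluster itself the library without antibody held 2597 (8 events), endo_OE 1552 and 2021, and endo_WT 364, so both RRM_OE libraries lay above all 23 others. Against endo_OE the same bin had a log2 fold change of 2.03 ± 0.68 and did not pass (adjusted p = 0.697). The call was lost without RRM_OE 3 (adjusted p = 0.188) and without RRM_OE 4 (0.0766), where the remaining library is assumed to vary like the other groups, and with quantile normalization (0.0566), in a range over the alternatives from 4.85e-25. The log2 fold change was then 3.44, 3.83 and 3.18.

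For endo_OE against GFP_OE, none of the 931 bins passed with limma-voom (97 had p below 0.05), and 0.0493% of all bins tested did. With the run as a block 56 of the 931 and 110 of all 2030 passed, and with the replicate block 214 and 470. GFP_OE 3 comes from another run than GFP_OE 4 and both endo_OE libraries. The median log2 fold change of the 931 bins was 0.46, against 0.54 over all, and with quantile normalization -0.11 against 0.01. With at least 3 events expected in the shallowest library it was 0.46 against 0.60. For RRM_OE against endo_OE none passed (52 had p below 0.05, and 0% of all bins passed), with medians of -0.17 and -0.05. With at least 3 events expected in the shallowest library these medians were -0.85 and -0.84. With the run as a block 31 of the 931 and 45 of all 2030 passed, and with the replicate block 59 and 95. RRM_OE 3 comes from another run than RRM_OE 4 and endo_OE. For poly_IP against mono_IP, 238 bins with shared nucleotides were tested among 663, and none passed (1 had p below 0.05, and 0% of all bins passed). The medians were -1.08 and -0.87. On simulated data 0% of 2-fold and 8% of 4-fold decreases were recovered in this comparison, so the lack of calls does not show equal levels.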

How the data were processed

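Per the file headers, the authors deposited for each library a score for every crosslinked nucleotide on mm9, which is its number of cDNAs, signed by strand. Per the file headers, peak calling used 100 permutations, neighbours up to 15 nt and an FDR of 0.05. CASAVA 1.4 is named in the submitters' processing notes, and the aligner is not given in the sources used here. Groups and replicate numbers came from the sample titles, since header numbers differ for several libraries. Here, absolute scores were taken as events, on every chromosome and contig of the files. Members and lists were chosen with earlier results of these data known. Bins were tested with limma 3.58.1 (voom, library totals, 15 events or more) in R 4.3.3, on 7 anti-SRSF7 or 4 piCLIP libraries. The procedure was checked on simulated data, where false calls exceeded the nominal rate for RRM_OE against GFP_OE. Most decreases were missed in the anti-SRSF7 comparisons, as were most decreases of 2-fold and 4-fold for poly_IP against mono_IP. Other values used Python 3.11.15. Named were clusters ranked in the first 10 by anti-GFP level, 5 by size, 5 by anti-SRSF7 level, 3 each by highest and lowest mutZn to WT ratio, and called bins. Replicate numbers were not taken as pairs.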

Additional observations from a re-analysis of the deposited data

How the results depend on the processing

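Requiring a score of at least 5 or 10 in each list left 1764 or 747 shared nucleotides (61.7% or 66.0% of the D27aa nucleotides with such scores), and an event in each of the 7 libraries left 1683 (4.84%). Allowing WT and mutZn nucleotides within 15 nt gave 22890 (65.9%), and within 1 nt 50.6% of the D27aa list was shared. Requiring an event in a WT library, an alternative chosen after seeing the data, gave 30.9%. The share with a neighbour within 15 nt was 81.5% with scores of at least 5, 89.4% without chromosome 17 and 88.5% with an event in a WT library. Within 30 nt it was 83.0%, 90.4% and 89.7%, and scores of at least 5 gave 471 clusters.

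Counting each position once gave levels (EPM) of 8832 (WT), 1577 (mutZn), 25800 (D27aa), 41694 (mono_IP), 31524 (poly_IP), 18296 (GFP_OE), 38529.9 (endo_OE) and 34033 (RRM_OE). Without the 5 windows, also chosen after seeing the data, they were 15981, 7133, 46215, 65896, 32022, 31413, 43501 and 23359.7. With events within 1 nt they were 19199 (mutZn), 69909.6 (D27aa), 97446 (mono_IP), 49299 (poly_IP), 70968 (GFP_OE), 97102 (endo_OE) and 69249 (RRM_OE). Without cluster 1 they were 12956 (mutZn), 59679 (D27aa), 35487 (poly_IP), 49571 (GFP_OE), 73124 (endo_OE) and 45395 (RRM_OE). Without the mitochondrial genome they were 13676 (mutZn), 64698 (D27aa) and 82993 (endo_OE), and with an event in a WT library 13750 (mutZn), 60471 (D27aa), 36991 (poly_IP) and 82675 (endo_OE). The mean of D27aa stayed above that of WT, and WT above mutZn, under each of these. All of them keep nucleotides chosen from these libraries, and counting positions once lowers deep libraries by construction, so this order stays a description.

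Leaving out 1 WT or mutZn library in turn gave a median ratio of mutZn to WT over the 186 clusters of 0.585 to 0.657.

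The log2 ratio to nucleotides of the WT and mutZn lists only stayed above 0 in every library under all 3 alternatives (mean 2.12 to 4.96) and when 1 library was left out (5.17 to 5.31).

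Counts of called bins with shared nucleotides moved widely, and the cause was not tested. With no filter, 879 (RRM_OE against GFP_OE), 115 (endo_OE against GFP_OE) and 0 (RRM_OE against endo_OE) passed. An empty bin scales to a higher level in a shallower library by construction, but its part in these calls was not tested. With each position counted once 14 (RRM_OE against GFP_OE) and 53 (endo_OE against GFP_OE) passed, and with bins of 500 nt 0 and 1. Quantile normalization gave 0 for RRM_OE against GFP_OE. With the run as a block 12, 56 and, for RRM_OE against endo_OE, 31 passed. With the replicate block 67, 214 and 59 passed. The labels do not say that a number marks a shared batch, and with only 2 pairs the correlation of deviations (0.273 for RRM_OE and GFP_OE, 0.409 for poly_IP and mono_IP) does not show pairing. Leaving out 1 library gave 0 to 4, 0 to 12 and 0 to 7. Over all bins tested, against 2, 1 and 0, the calls were 534406, 59856 and 0 with no filter, 25, 95 and 0 with positions once, 28, 110 and 45 with the run block, 152, 470 and 95 with the replicate block, 3, 0 and 0 with bins of 50 nt and 1, 3 and 0 with bins of 500 nt. For poly_IP against mono_IP no alternative gave a call among bins with shared nucleotides, the replicate block included, and the run block could not be fitted to 1 run.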
